A study of Homo sapiens with 12 samples.

Results

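The genes described here are 46 genes of DNA replication and of the E2F program, chosen by symbol for their known function: origin licensing, the replicative helicase, the polymerases and clamp, nucleotide supply, the E2F factors with the E cyclins, and chromatin assembly. All 46 were found among the 28512 genes of the files, and all 46 were among the 14232 genes tested, which are those whose values averaged 10 or more across the 12 libraries. The RNA, polyadenylated, came from 3 human breast carcinoma cell lines of the triple-negative kind. SUM159, MDAMB231 and HCC1806 were each given DMSO, JQ1, GSK2801 or both compounds for 72 h. JQ1 is an inhibitor of the BET bromodomain proteins, and GSK2801 an inhibitor of the BAZ2A and BAZ2B bromodomains. GSK2801 was at 10 µM in every line, whereas JQ1 was at 300 nM in SUM159, at 100 nM in MDAMB231 and at 500 nM in HCC1806, alone and in the combination. The medium of SUM159 and MDAMB231 was DMEM/F12, supplemented with hydrocortisone, insulin and serum, and that of HCC1806 was RPMI 1640 with serum, so line, JQ1 dose and, for HCC1806, medium cannot be told apart. Each of the 12 combinations of line and treatment is 1 library, so a p-value over lines speaks of how the lines vary, not of how repeated cultures would.

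Chromosomal replication starts when the origin recognition complex, CDC6 and CDT1 load the MCM2 to MCM7 ring onto DNA in G1. CDC45 and the GINS complex later join the ring to form the active helicase, and the polymerases follow with the PCNA clamp. Most of these genes are transcribed toward S phase from promoters bound by E2F factors, which the RB family holds in check, so their RNA is widely used as a readout of how many cells are cycling.

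The libraries held between 24200000 and 46800000 estimated reads and between 15743 and 16774 genes above 0. Of the marker genes, VIM stood between 90380.3 and 142226 in SUM159 and MDAMB231 and between 46.9 and 173 in HCC1806. CDH1 was between 1.06 and 33.2 in SUM159, between 6.39 and 30.0 in MDAMB231, and between 14154 and 27120.5 in HCC1806. EPCAM, KRT5, KRT8 and KRT18 were also higher in all HCC1806 libraries than in the other lines. KRT17 and KRT14 were not. KRT17 was between 2.11 and 255 in HCC1806 and between 46.7 and 88.0 in SUM159. KRT14 was between 1.14 and 91.6 in HCC1806 and between 1.17 and 42.5 in SUM159. Of the other mesenchymal-like markers, ZEB1 was between 1540.3 and 3085 in SUM159 and MDAMB231 and at most 9.60 in HCC1806, and FN1 was higher in both than the 6424 to 17551 of HCC1806, whereas CDH2 was between 4.65 and 17.3 in MDAMB231, below the 705 to 1412 of HCC1806. The estrogen receptor gene ESR1 was between 0 and 138. Of the other luminal markers, PGR was at most 12.1, while GATA3 (920 to 2576) and FOXA1 (580 to 1875) were higher in HCC1806 than in both other lines. The T cell marker CD3E was at 0 in 11 libraries and at 1.17 in the other, and HBB, of red blood cells, was at 0 in all 12. PTPRC, of blood cells, was at 422 and 60.4 in the SUM159 libraries with DMSO and GSK2801 and at most 8.54 in the other 10, and PECAM1, of endothelium, between 227 and 1145 in SUM159 and at most 5.48 elsewhere; the part of either in the results was not tested. CD68, of macrophages, was between 344 and 1349 in SUM159 and HCC1806 and between 3128 and 8767 in MDAMB231, where it was lowest with DMSO and highest with both compounds, and its part was not tested either. In bulk RNA, fewer cells of a kind and less RNA per cell cannot be told apart, and this applies to every value below.

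The promoters of 4 members that passed the tests below in the most comparisons and have an entry among the RefSeq promoters (build GRCh38.p14) are shown, since the same short words recur in them. Each runs 5′ to 3′ on the strand of the gene, from 250 bases before its start to 50 after. Capitals mark an E2F word, searched on both strands as TTTCCCGC, TTTCGCGC, TTTGCCGC or TTTGGCGC, of which no one contains another.
E2F2, chr1:23531184-23531483, minus strand: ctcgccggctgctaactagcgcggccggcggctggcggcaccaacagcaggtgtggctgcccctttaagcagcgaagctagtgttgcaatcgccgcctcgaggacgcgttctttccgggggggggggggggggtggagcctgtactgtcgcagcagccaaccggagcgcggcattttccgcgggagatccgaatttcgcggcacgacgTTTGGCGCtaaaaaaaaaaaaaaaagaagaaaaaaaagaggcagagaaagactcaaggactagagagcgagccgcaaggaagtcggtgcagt
POLE2, chr14:49688165-49688464, minus strand: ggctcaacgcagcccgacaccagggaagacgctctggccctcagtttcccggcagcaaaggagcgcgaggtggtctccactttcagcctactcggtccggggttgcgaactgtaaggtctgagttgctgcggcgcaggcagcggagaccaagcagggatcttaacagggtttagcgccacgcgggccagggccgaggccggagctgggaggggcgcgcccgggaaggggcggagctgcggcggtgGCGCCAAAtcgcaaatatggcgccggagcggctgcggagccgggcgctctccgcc
POLA1, chrX:24693668-24693967, plus strand: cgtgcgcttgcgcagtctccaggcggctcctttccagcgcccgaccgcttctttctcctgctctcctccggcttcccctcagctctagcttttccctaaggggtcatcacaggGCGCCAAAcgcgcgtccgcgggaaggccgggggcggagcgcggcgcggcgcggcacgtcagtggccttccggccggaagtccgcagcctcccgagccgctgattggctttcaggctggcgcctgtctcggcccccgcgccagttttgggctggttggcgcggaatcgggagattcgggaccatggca
UHRF1, chr19:4909251-4909550, plus strand: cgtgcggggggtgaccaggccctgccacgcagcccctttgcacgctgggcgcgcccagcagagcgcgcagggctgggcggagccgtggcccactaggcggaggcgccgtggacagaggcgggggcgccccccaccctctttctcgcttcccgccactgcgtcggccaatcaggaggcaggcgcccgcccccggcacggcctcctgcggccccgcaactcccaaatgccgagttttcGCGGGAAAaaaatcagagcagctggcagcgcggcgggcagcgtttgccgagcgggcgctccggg
Each of the 4 holds 1 match. Counted from the gene's start as 0, it begins at −42 in E2F2, at −5 in POLE2, at −137 in POLA1 and at −14 in UHRF1, on the gene's own strand in E2F2 and on the other strand in the rest. A promoter entry was found for 40 of the 46 members, and an E2F word for 20 of these 40 (50%), against 5.14% of the 11022 tested genes with an entry and 3.33% of all 27305 promoters of the same length. MCM6 held 4 matches, and E2F1, MCM2, MCM3 and MCM7 held 2 each. The word CCAAT was in 20 of the 40 (50%), against 36.7% of the promoters of tested genes, and the E-box CACGTG in 5 of the 40 (12.5%), against 9.97%. These are matches of letters and not sites shown to be bound.

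The members had lower values with JQ1 in MDAMB231, and in the other lines they lay on both sides of their DMSO level. In SUM159 with JQ1, 24 were below DMSO and 22 above, with log2 ratios from −1.90 (E2F8) to 0.66 (TK1). In MDAMB231 the median log2 ratio of the 46 members to the DMSO library was −0.97 with JQ1 and −1.52 with both compounds, against a median of −0.03 over all tested genes in both cases. With JQ1, 44 of the 46 were below 0 there and 23 were at least 2-fold lower, a size that 9.17% of all tested genes reached, and with both compounds 45 were below 0 and 37 at least 2-fold lower (14.3% of all). In SUM159 the median of the members was −0.01 with JQ1 and −0.02 with both (all genes −0.12 and −0.11), and in HCC1806 it was −0.05 and −0.11 (all genes 0.01 and −0.03). Summed over the 46 members, their share of the library's signal in MDAMB231 was 0.491% with DMSO, 0.256% with JQ1, 0.470% with GSK2801 and 0.159% with both. The same share stood between 0.317% and 0.366% in SUM159 and between 0.397% and 0.448% in HCC1806.

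**Figure D1:**
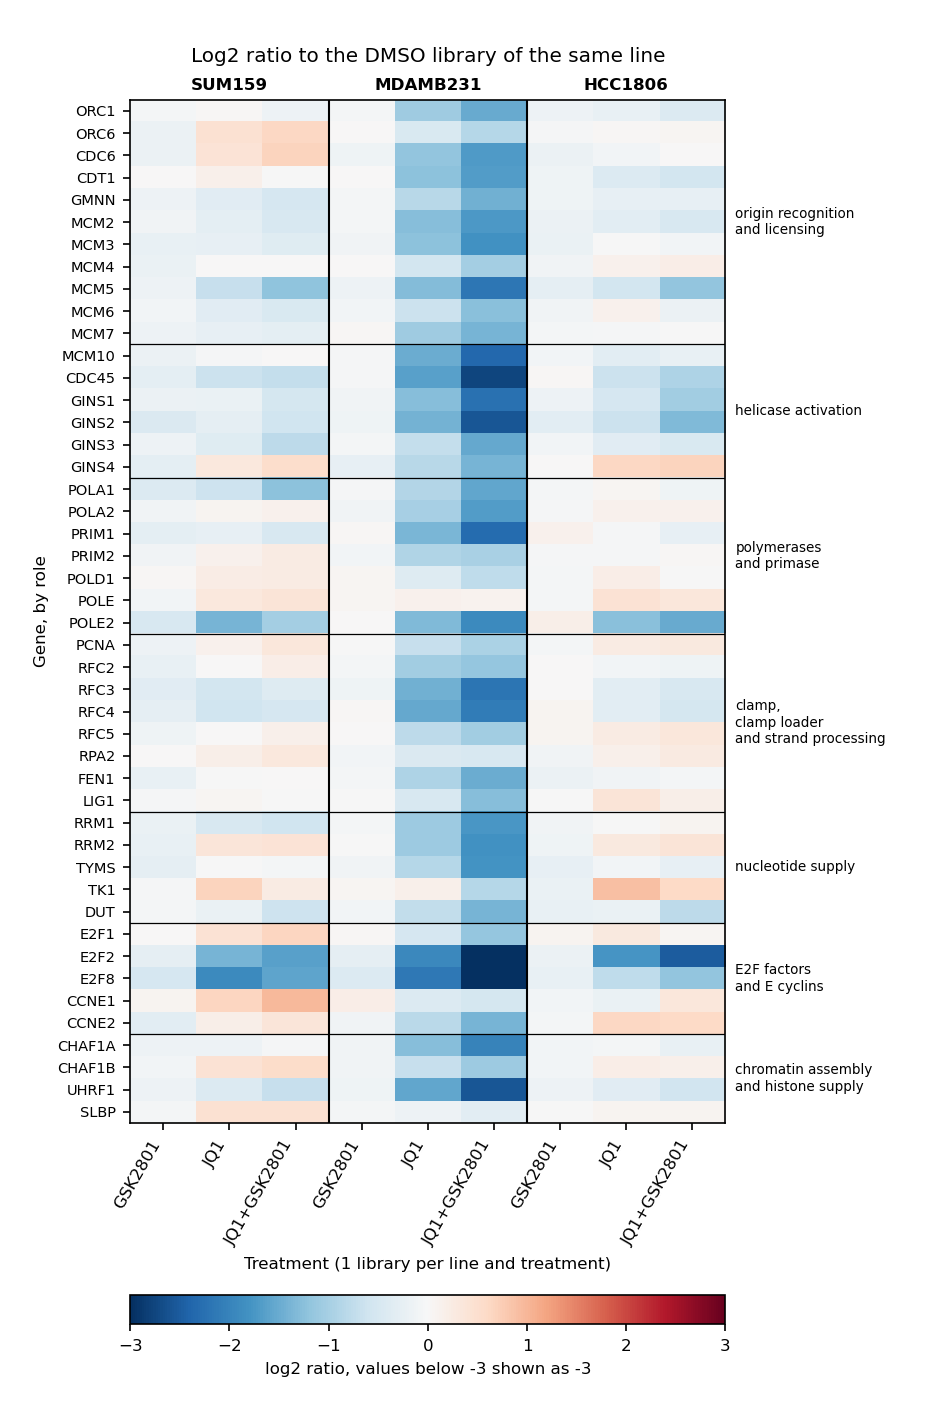
Log2 ratio of each of the 46 genes (rows, grouped by role) to the DMSO library of the same line, for GSK2801, JQ1 and both compounds in SUM159, MDAMB231 and HCC1806 (columns, 1 library each). The JQ1 and combination columns of MDAMB231 are blue in nearly all rows, with 44 and 45 of 46 genes below 0, while E2F2, E2F8, POLE2 and MCM5 are blue with JQ1 in all 3 lines.

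Across the 3 lines together, JQ1 alone lowered 3 members, E2F2, POLE2 and MCM5, and raised 0, of the 46 (limma's moderated test with the line as a block, adjusted p at most 0.05 over all 14232 tested genes). Over all tested genes 22.6% passed in either direction, 13.1% lower and 9.52% higher, so the members' share, 6.52%, lay below the background. At an unadjusted p under 0.05 there were 10 members (21.7%, against 37.2% of all genes), and the median log2 fold change was −0.37 (all genes −0.08). With both compounds against DMSO 16 members fell and 0 rose, and the median was −0.66 (all genes −0.09). Of all genes 34.8% passed in either direction, 19.8% lower and 15% higher. The members' share, 34.8%, was thus the background share in either direction, though all 16 were lower. The 16 were E2F2, E2F8, MCM5, GINS2, POLE2, CDC45, UHRF1, GINS1, RFC4, RFC3, POLA1, DUT, GINS3, MCM2, GMNN and MCM6. Against GSK2801 alone the combination lowered 11 members (23.9%) and raised 0, where 29% of all genes passed and 17.2% were lower. When SUM159, MDAMB231 or HCC1806 was left out in turn, JQ1 gave 2, 6 and 0 members, where 11.5%, 10.8% and 2.82% of all genes passed. The combination against DMSO gave 6, 14 and 6, where 21.9%, 22.2% and 18.7% of all genes passed. Against GSK2801 it gave 6, 11 and 2, where 16.7%, 17.3% and 11.6% passed, so the shares of all genes were lower too. Single libraries counted too: without the MDAMB231 combination library JQ1 alone gave 11 members (23.9%, against 26.2% of all genes) and the combination 10 against DMSO (21.7%, against 28.7%). Without the MDAMB231 DMSO library the combination gave 6 (13.0%, against 24.1%), namely DUT, E2F2, E2F8, GINS3, MCM5 and POLE2. These 6 passed whichever single library was left out. Against GSK2801 the combination gave 5 without the MDAMB231 GSK2801 library, 6 without that of HCC1806 and 7 without the MDAMB231 combination library, where 18.2%, 17.0% and 23.6% of all genes passed. The comparisons share their DMSO or single-compound libraries. Of all genes called with JQ1, 58.0% were lower, and 46.8% with median-of-ratios rescaling or 45.9% with quantile normalization of the values; the members' calls kept their direction under both.

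GSK2801 alone moved 0 of the 46 members past the threshold (limma), 0 at an unadjusted p under 0.05, and 0% of all tested genes passed. The members' median log2 fold change was −0.10, with 43 of the 46 below 0, against 0.01 and 48.5% over all tested genes. The median ratio to DMSO was −0.16 in SUM159, −0.08 in HCC1806 and −0.06 in MDAMB231, and 28 members were below 0 in all 3 lines (17.6% of all genes). E2F8 had the lowest estimate, −0.39 ± 0.51.

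With JQ1, 22 members were below 0 in all 3 lines (28.8% of all tested genes) and 2, POLE and TK1, were above 0 in all 3 (22.9%). In 12 members both libraries with JQ1 lay below both without it within each line (19.6% of all tested genes), and these were GMNN, MCM2, MCM5, CDC45, GINS1, GINS3, POLE2, RFC3, RFC4, E2F2, E2F8 and UHRF1. POLE alone of the members had both above in each line (2.17%, against 13.2% of all tested genes). For MCM5 and CDC45 the 6 libraries with JQ1 also lay below the 6 without it across lines, as for 3.70% of all tested genes. The JQ1 ratios of the 46 correlated between lines. Pearson's r was 0.743 between SUM159 and MDAMB231, 0.760 between SUM159 and HCC1806 and 0.729 between MDAMB231 and HCC1806. Over all 14232 tested genes r was between 0.388 and 0.463. By order, Spearman's rank correlation of the 46 was 0.711, 0.687 and 0.740 for the same pairs. For all tested genes it was between 0.433 and 0.510. These are descriptions across genes, and genes of 1 library share its depth and scaling.

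**Figure D2:**
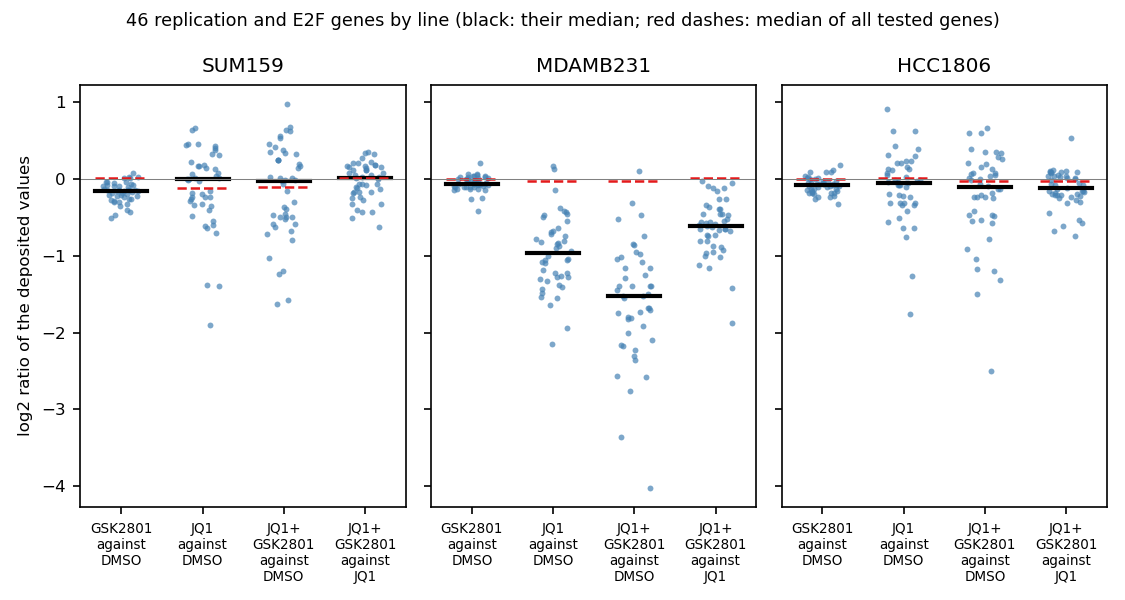
Log2 ratios of the 46 genes (points) within each line for GSK2801, JQ1 and both compounds against DMSO and for both against JQ1, with the members' median as a black bar and the median of all 14232 tested genes as red dashes. In MDAMB231 the members' median is −0.97 with JQ1 and −1.52 with both, whereas in SUM159 and HCC1806 the members lie on both sides of 0.

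The values of single members are given below as deposited, scaled estimated reads, in the order DMSO, JQ1, GSK2801 and both compounds. They are not per length, so levels are compared within a gene. Fold changes are on the scale of log2(value + 1), with the SE of the fit over 12 libraries (3 lines).

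Of the genes of origin recognition and licensing, MCM5, a subunit of the helicase ring, was at 3237, 1992, 2914 and 1403 in SUM159, at 3231, 1314, 2923 and 719 in MDAMB231 and at 3432, 2330.2, 2849 and 1520.4 in HCC1806. In each line the JQ1 library was lower than DMSO and the combination lower again, and the ranges of the groups with and without JQ1 did not overlap. MCM5 fell by 0.85 ± 0.21 with JQ1 (adjusted p = 0.0213) and by 1.52 ± 0.21 with both (adjusted p = 0.0011). The JQ1 call was lost without SUM159 (adjusted p = 0.113) or without HCC1806 (adjusted p = 0.101), and without the MDAMB231 DMSO, MDAMB231 JQ1 or SUM159 JQ1 library (adjusted p between 0.0591 and 0.0916). Another ring subunit, MCM2, was at 5121, 4177, 4787 and 3694 in SUM159, at 4044, 1668, 3869 and 1215 in MDAMB231 and at 5092, 4101, 4498 and 3673 in HCC1806. It was lower with JQ1 in all 3 lines, by the most in MDAMB231, and its DMSO and combination libraries did not overlap. MCM2 fell with both compounds (−0.89 ± 0.27, adjusted p = 0.0311) and did not pass with JQ1 alone (−0.63 ± 0.27, adjusted p = 0.124); the first call was lost without SUM159 (adjusted p = 0.0970) or HCC1806 (adjusted p = 0.106). The third subunit given in full, MCM3, was at 6259, 5296, 5405 and 4842 in SUM159, at 7545, 3234, 7024 and 2132 in MDAMB231 and at 7033, 6981, 6162 and 6611 in HCC1806. Only its MDAMB231 values with JQ1 lay well under the rest, HCC1806 was nearly level, and the fit over lines did not pass (−0.76 ± 0.33 with both, adjusted p = 0.103).

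GMNN encodes geminin, which keeps origins from being licensed again by binding CDT1, and was at 1559, 1238, 1412 and 1104 in SUM159, at 2558, 1444, 2449 and 937 in MDAMB231 and at 1815, 1534, 1657 and 1542 in HCC1806. All 3 DMSO libraries lay above all 3 JQ1 libraries and all 3 combination libraries. GMNN fell by 0.73 ± 0.22 with both (adjusted p = 0.0333), a call that was lost whichever line was left out (adjusted p between 0.0649 and 0.132). CDC6, which loads the ring together with CDT1, was at 1758, 2322, 1561 and 2811 in SUM159, at 4475, 1968, 4063 and 1369.9 in MDAMB231 and at 2622, 2476, 2318 and 2651 in HCC1806. JQ1 went with lower CDC6 in MDAMB231 and higher CDC6 in SUM159, with HCC1806 between them, and the groups overlapped. CDT1, geminin's partner, was at 1642, 1838, 1651 and 1629 in SUM159, at 1558, 665, 1562 and 484 in MDAMB231 and at 3229, 2413, 2947 and 2209 in HCC1806. Here MDAMB231 was again lowest with JQ1, HCC1806 was moderately lower, and SUM159 did not separate. Neither gene passed over the lines with both compounds (CDC6 −0.34 ± 0.42, adjusted p = 0.557, and CDT1 −0.75 ± 0.31, adjusted p = 0.0944). The remaining 5 genes of this group, ORC1, ORC6, MCM4, MCM6 and MCM7, had ratios to DMSO with both compounds in MDAMB231 of −1.52 (ORC1), −0.86 (ORC6), −1.02 (MCM4), −1.25 (MCM6) and −1.40 (MCM7). MCM6 fell over the lines (−0.63 ± 0.20, adjusted p = 0.0392), the smallest of the 16 changes, and its call was lost whichever line was left out (adjusted p between 0.0575 and 0.157). Of all 11 genes in this group, 11 were below 0 in MDAMB231 with both compounds and 8 were in each of the other lines.

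The genes of helicase activation had the lowest medians of any group in MDAMB231, −1.34 with JQ1 and −2.30 with both compounds. CDC45, which joins the ring to the GINS complex, was at 939.9, 602, 765 and 571 in SUM159, at 1341, 430.0, 1307 and 197 in MDAMB231 and at 899, 579, 923 and 477 in HCC1806. All 6 libraries with JQ1 lay below the 6 without it, and the MDAMB231 combination library was far below the rest. CDC45 fell by 1.46 ± 0.39 with both (adjusted p = 0.0182), and not past the threshold with JQ1 alone (−0.97 ± 0.39, adjusted p = 0.101). The combination call was lost without SUM159 (adjusted p = 0.0520) or HCC1806 (adjusted p = 0.104). GINS1, 1 of the 4 subunits of that complex, was at 1236, 1084, 1103 and 862 in SUM159, at 1821, 756, 1694 and 387 in MDAMB231 and at 2162, 1524, 1953 and 1050.2 in HCC1806. It was lower with JQ1 and lower again with both in all 3 lines, and its DMSO and combination libraries did not overlap. GINS2 was at 858, 717, 633 and 569.8 in SUM159, at 764, 287, 699.8 and 127 in MDAMB231 and at 1850.0, 1184, 1475 and 742 in HCC1806. HCC1806 held the highest GINS2 values in each treatment, and within each line the combination was the lowest. Both subunits fell with the combination (GINS1 −1.26 ± 0.31, adjusted p = 0.0125, and GINS2 −1.49 ± 0.37, adjusted p = 0.0138), and both calls were lost without HCC1806 (adjusted p = 0.113 and 0.130).

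GINS3 was at 519, 406, 464 and 299 in SUM159, at 552, 335, 532 and 191 in MDAMB231 and at 782, 616, 743 and 566 in HCC1806. The combination was lowest in every line, though the HCC1806 combination library lay above the DMSO libraries of the other lines. GINS3 fell with both compounds (−0.93 ± 0.21, adjusted p = 0.00864), a call lost without SUM159 (adjusted p = 0.0716). The last subunit, GINS4, was at 714, 890.5, 581 and 1033 in SUM159, at 1162, 649, 979.9 and 442 in MDAMB231 and at 818, 1261, 824 and 1293 in HCC1806. It went the other way in SUM159 and HCC1806, where both libraries with JQ1 were above both without it, and was lower in MDAMB231 alone. Its fit over the lines was therefore near 0 (−0.07 ± 0.38 with both, adjusted p = 0.91). MCM10, which helps start the helicase, had ratios with both compounds of −2.36 in MDAMB231, 0.01 in SUM159 and −0.23 in HCC1806. In MDAMB231 all 6 genes of this group were at least 2-fold lower with both compounds.

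**Figure D3:**
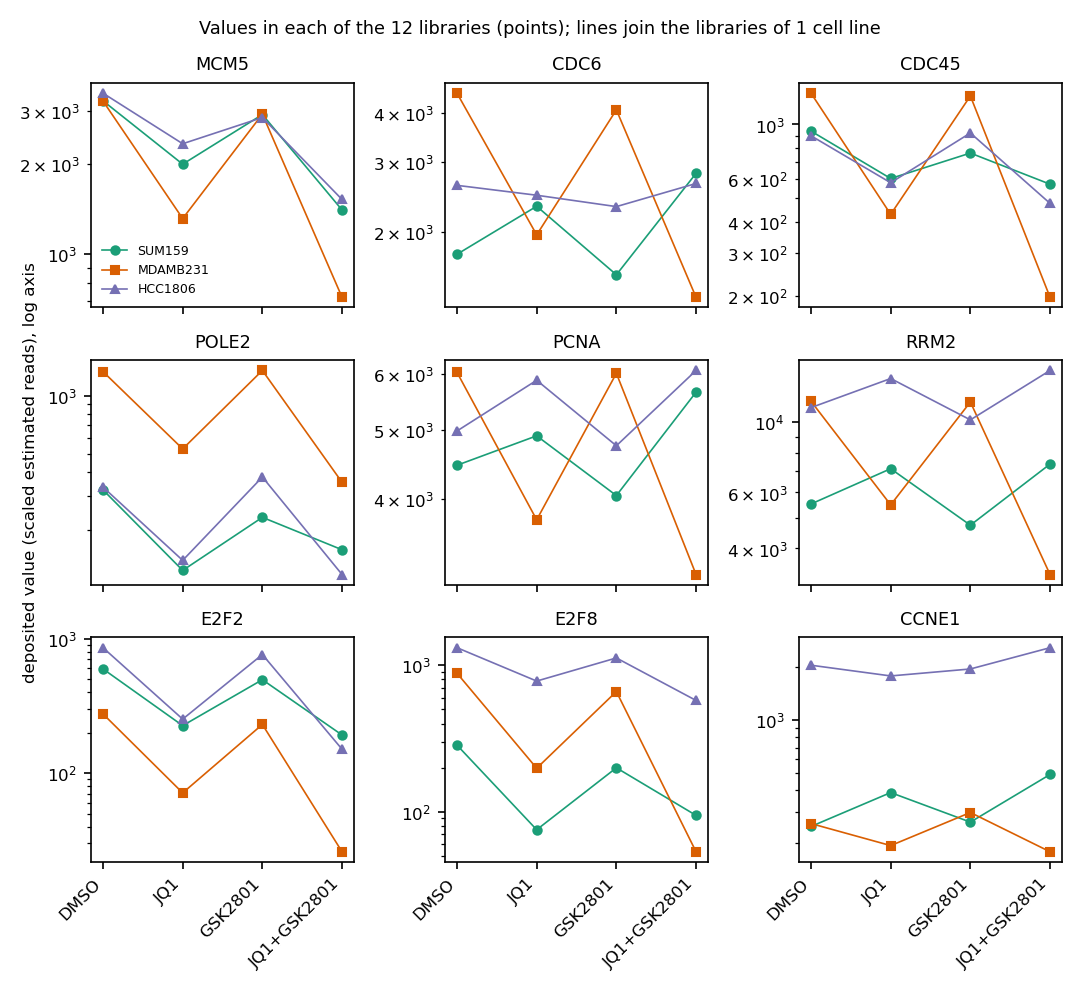
Deposited values (scaled estimated reads, log axis, a different range in each panel) of 9 members in the 12 libraries, by treatment; points are single libraries and thin lines join the libraries of 1 cell line. MCM5, CDC45, POLE2, E2F2 and E2F8 are lower with JQ1 in each line, while CDC6, PCNA, RRM2 and CCNE1 are lower with JQ1 in MDAMB231 and higher in SUM159.

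Among the polymerases, POLE2, the second subunit of the leading strand polymerase epsilon, was at 323, 123, 233 and 158 in SUM159, at 1335, 529, 1353 and 354 in MDAMB231 and at 334, 139, 377 and 117 in HCC1806. Within each line both libraries with JQ1 lay below both without it, but MDAMB231 had several times the level of the other lines, so the treatment groups overlapped. POLE2 fell by 1.33 ± 0.24 with JQ1 (adjusted p = 0.00612) and by 1.48 ± 0.24 with both (adjusted p = 0.00209). The JQ1 call was lost without MDAMB231 (adjusted p = 0.0522) or HCC1806 (adjusted p = 0.0885). The catalytic subunit of the same enzyme, POLE, was above 0 with JQ1 in all 3 lines (ratios 0.31, 0.13 and 0.43 in SUM159, MDAMB231 and HCC1806) and did not pass (0.29 ± 0.10, adjusted p = 0.0731).

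POLA1, the catalytic subunit of the polymerase alpha that starts each strand with primase, was at 1692, 1104, 1282 and 717 in SUM159, at 1528, 829.9, 1503 and 522 in MDAMB231 and at 2112, 2192, 2032 and 1928 in HCC1806. It was lower with JQ1 in SUM159 and MDAMB231 and near its DMSO level in HCC1806. POLA1 fell with both compounds (−0.97 ± 0.26, adjusted p = 0.0192), a call lost without SUM159 (adjusted p = 0.184) or MDAMB231 (adjusted p = 0.114). PRIM1, the catalytic subunit of primase, was at 761, 647, 621 and 541 in SUM159, at 1022, 392, 1048 and 206 in MDAMB231 and at 1064, 1039, 1155 and 899.8 in HCC1806. MDAMB231 with both compounds had by far the lowest PRIM1 value, and the groups overlapped. PRIM1 did not pass with both compounds (−1.01 ± 0.40, adjusted p = 0.0775), and 21.6% of its exon bases overlap other genes. For the remaining 3, POLA2, PRIM2 and POLD1, the combination's ratios in MDAMB231 were −1.68, −0.98 and −0.75, and in SUM159 0.14, 0.24 and 0.24.

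PCNA, the sliding clamp that holds the polymerases on DNA, was at 4461, 4908, 4043 and 5655 in SUM159, at 6030.0, 3738, 6012 and 3129.9 in MDAMB231 and at 4986, 5878, 4753 and 6068 in HCC1806. The treatment groups overlapped: with JQ1 the MDAMB231 libraries were the lowest of the 12, and those of SUM159 and HCC1806 were above their DMSO libraries. PCNA did not pass in any comparison over the lines (−0.11 ± 0.27 with both, adjusted p = 0.781). Of the clamp loader, RFC3 was at 1738, 1192, 1364 and 1329 in SUM159, at 1660.1, 615, 1508 and 365 in MDAMB231 and at 2061, 1661, 2086 and 1479 in HCC1806. Its DMSO libraries lay above all combination libraries. RFC4 was at 1071, 705, 894 and 761 in SUM159, at 1911, 656, 1957 and 444 in MDAMB231 and at 1644, 1319, 1748 and 1137 in HCC1806. Within each line both libraries with JQ1 lay below both without it, and the level in SUM159 was the lowest with DMSO. Both loader subunits fell with the combination (RFC3 −1.02 ± 0.35, adjusted p = 0.0483, and RFC4 −1.04 ± 0.34, adjusted p = 0.0401), and both calls were lost whichever line was left out (adjusted p between 0.0785 and 0.145 for RFC3 and between 0.0531 and 0.131 for RFC4). The other loader subunits, RFC2 and RFC5, with RPA2 of the single-strand binding complex, the flap nuclease FEN1 and the ligase LIG1, were all below 0 in MDAMB231 with both compounds. Their ratios there ran from −1.49 (FEN1) to −0.47 (RPA2), against −0.02 (LIG1) to 0.33 (RPA2) in SUM159 for the same genes.

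For nucleotide supply, RRM2, the regulated subunit of ribonucleotide reductase, was at 5521, 7128, 4735 and 7371 in SUM159, at 11618, 5485, 11559 and 3313 in MDAMB231 and at 11096, 13699, 10154 and 14523 in HCC1806. JQ1 went with higher RRM2 in SUM159 and HCC1806 and with lower RRM2 in MDAMB231, so the groups overlapped and the fit over lines did not pass (−0.33 ± 0.45 with both, adjusted p = 0.587). The large subunit, RRM1, was at 8504, 6067, 7391 and 5636 in SUM159, at 9845, 4614, 9439 and 2929.8 in MDAMB231 and at 4061, 4025, 3758 and 4297 in HCC1806. It was lower with JQ1 in SUM159 and MDAMB231 and near level in HCC1806, whose DMSO library had the lowest level of the 3 lines. RRM1 did not pass (−0.75 ± 0.32 with both, adjusted p = 0.0933).

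TYMS, the thymidylate synthase, was at 3915, 3911, 3242 and 3736 in SUM159, at 7030.3, 3898, 6552 and 2019 in MDAMB231 and at 4408, 4167, 3745 and 3718 in HCC1806. MDAMB231 had the highest TYMS with DMSO and the lowest with both compounds, the other lines stayed nearly level, and the DMSO libraries lay above all combination libraries. TYMS did not pass (−0.70 ± 0.33, adjusted p = 0.124). Of the exon bases of TYMS, 46.6% overlap TYMSOS or ENOSF1 on the opposite strand, and which strand was counted is not given in the sources used here. DUT, which keeps uracil out of DNA, was at 2459.5, 2149.8, 2368 and 1592 in SUM159, at 3070.4, 1829.6, 2919.5 and 1167 in MDAMB231 and at 1957, 1695, 1681 and 1139 in HCC1806. All combination libraries lay below all DMSO libraries and all JQ1 libraries. DUT fell by 0.93 ± 0.17 with both (adjusted p = 0.00333), and this call passed whichever line was left out; with JQ1 alone DUT did not pass (−0.38 ± 0.17, adjusted p = 0.128). TK1, the salvage thymidine kinase, had the highest JQ1 estimate of all 46 (0.58 ± 0.27, adjusted p = 0.157), with ratios of 0.66, 0.16 and 0.91, and did not pass.

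E2F2 and E2F8 had the lowest estimates of the 46 with JQ1 and with both compounds. E2F2, an activator of replication genes, was at 594, 225, 494 and 192 in SUM159, at 275, 71.2, 229.8 and 26 in MDAMB231 and at 854, 252, 760.5 and 150.3 in HCC1806. In each line both libraries with JQ1 lay below both without it, and the DMSO libraries overlapped with neither the JQ1 nor the combination libraries. E2F2 fell by 1.70 ± 0.30 with JQ1, 3.24-fold (adjusted p = 0.00601), and by 2.49 ± 0.30 with both, 5.63-fold (adjusted p = 0.000599). The JQ1 call was lost without HCC1806 (adjusted p = 0.112), and the combination's call passed whichever line was left out. E2F8, an atypical factor that represses E2F targets, was at 285, 75.4, 199 and 94.5 in SUM159, at 881, 198, 661 and 53.4 in MDAMB231 and at 1316, 779, 1120.2 and 575 in HCC1806. The levels differed so much between lines that the groups overlapped, though each line was lower with JQ1. E2F8 fell by 2.27 ± 0.51 with both (adjusted p = 0.0096) and narrowly missed with JQ1 (−1.60 ± 0.51, adjusted p = 0.053). Its combination call was lost without SUM159 (adjusted p = 0.0572) or HCC1806 (adjusted p = 0.0525).

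E2F1, the best known activator of the family, was at 703, 945, 706 and 1092 in SUM159, at 2095, 1484, 2137 and 941 in MDAMB231 and at 892, 1092, 949 and 933 in HCC1806. Its MDAMB231 values were lower with JQ1, those of SUM159 were higher, and those of HCC1806 stayed close to DMSO. CCNE1, the cyclin that drives entry into S phase with CDK2, was at 249.6, 389, 264 and 492 in SUM159, at 259, 194, 299.6 and 179 in MDAMB231 and at 2052, 1784, 1953 and 2579 in HCC1806. HCC1806 stood several times above the other lines in every treatment, and with JQ1 SUM159 was higher and MDAMB231 lower than its DMSO library. The other E cyclin, CCNE2, was at 498, 563, 398 and 636 in SUM159, at 1355, 774, 1269 and 514 in MDAMB231 and at 520.3, 799, 497 and 789 in HCC1806. It was higher with JQ1 in SUM159 and HCC1806 and lower in MDAMB231, and 37.1% of its exon bases overlap other genes on the opposite strand. None of these 3 passed over the lines (with both compounds, E2F1 −0.15 ± 0.31, CCNE1 0.26 ± 0.29 and CCNE2 −0.15 ± 0.38, adjusted p between 0.52 and 0.791).

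In chromatin assembly, UHRF1, which brings the maintenance methyltransferase to newly copied DNA, was at 3812, 2877, 3431 and 2373 in SUM159, at 5581, 1899.9, 5075 and 943 in MDAMB231 and at 8256, 6549.8, 7421 and 5523 in HCC1806. Within each line the JQ1 library was below DMSO and the combination was lowest, by the most in MDAMB231. UHRF1 fell by 1.28 ± 0.37 with both (adjusted p = 0.0273), a call lost without SUM159 (adjusted p = 0.0941) or HCC1806 (adjusted p = 0.0919). SLBP, which binds the stem loop of histone mRNAs, was at 2225, 3052, 2125 and 3058 in SUM159, at 3467, 3124, 3324 and 2798 in MDAMB231 and at 1477, 1555, 1471 and 1551 in HCC1806. It was higher with JQ1 in SUM159, a little higher in HCC1806 and a little lower in MDAMB231, and did not pass (0.07 ± 0.15 with both, adjusted p = 0.738). CHAF1A and CHAF1B, subunits of the chromatin assembly factor, had ratios with both compounds of −2.01 and −1.08 in MDAMB231 and of −0.03 and 0.56 in SUM159.

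The difference between lines was tested in another model with a JQ1 and a GSK2801 effect for each line, in which a line's JQ1 effect is the mean of its 2 pairs of libraries with and without JQ1. Its residual is each line's departure from additive effects, with 3 residual degrees of freedom. For HCC1806 against the mean of the other lines, 20 of the 46 members passed, all higher, with 25.1% of all tested genes passing and 14.5% higher (limma). This count turned on MDAMB231: without that line, HCC1806 against SUM159 alone gave 4 members, 2 higher and 2 lower, with 19.8% of all genes passing; of the 20, 2 still passed, and 6 turned to the other direction. The count was 0 when any 1 of the 4 HCC1806 libraries was left out (2.61% to 4.55% of all genes) and 6 or 7 when any 1 of the SUM159 libraries was (13.6% to 15.1%).

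The same test for MDAMB231 against the mean of the other lines was chosen after the values had been seen, so its p-values are a description. By it the JQ1 effect was lower in MDAMB231 for 43 of the 46 members and higher for 0, with 31.3% of all tested genes passing and 13.8% lower. The median difference of the members was −1.15 (all genes 0.05), all 46 were below 0, and the 3 that did not pass were E2F2 (−0.80 ± 0.34, adjusted p = 0.111), GINS3 (−0.67 ± 0.23, adjusted p = 0.0596) and POLE2 (−0.41 ± 0.29, adjusted p = 0.318). The first and the last of these 3 also passed over all lines with JQ1 alone. Of the 43, 27 passed whichever single library was left out. Without SUM159 33 of the members passed (71.7%, against 24.3% of all genes), and without HCC1806 32 did (69.6%, against 20.8%). RRM2 had the lowest difference (−1.90 ± 0.20, adjusted p = 0.0016), followed by MCM10 (−1.83 ± 0.22), CDC6 (−1.72 ± 0.17) and E2F8 (−1.70 ± 0.41). The E2F8 call was lost without HCC1806 (adjusted p = 0.164) and without any 1 of 8 single libraries (adjusted p between 0.0809 and 0.132). CDC6, GINS4, PCNA and CCNE2, which passed in no treatment comparison over the lines, differed by −1.72, −1.60, −1.12 and −1.59. The 2 smallest differences among those that passed in limma were POLE (−0.32 ± 0.09, adjusted p = 0.0347) and SLBP (−0.48 ± 0.09, adjusted p = 0.00797). The POLE call was lost without SUM159 (adjusted p = 0.0637) or HCC1806 (adjusted p = 0.0954) and without any 1 of 10 single libraries. That of SLBP was lost without SUM159 (adjusted p = 0.1055) and without either of 2 single libraries.

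By ratio to DMSO, JQ1 gave the lowest value in MDAMB231 for 45 of the 46 members, and both compounds for 46 of 46, against 32.8% of all tested genes in each case. These ratios and the positions that follow come from the same libraries as the test, so they are no separate evidence. In MDAMB231 both libraries with JQ1 lay below both without it for 44 members, against 41.4% of all genes. In SUM159 they lay below for 18 members (39.1%, against 45.3% of all genes) and above for 19 (41.3%, against 26.1%). In HCC1806 they lay below for 18 (39.1%, against 38.9%) and above for 14 (30.4%, against 36.4%), both near the background. MDAMB231 had the lowest JQ1 dose of the 3 lines, 100 nM. For the effect of GSK2801, 0 members differed between MDAMB231 and the other lines and 0 between HCC1806 and the other lines (limma, 0 at an unadjusted p under 0.05 in both, and 0% of all tested genes passed in either).

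**Figure D4:**
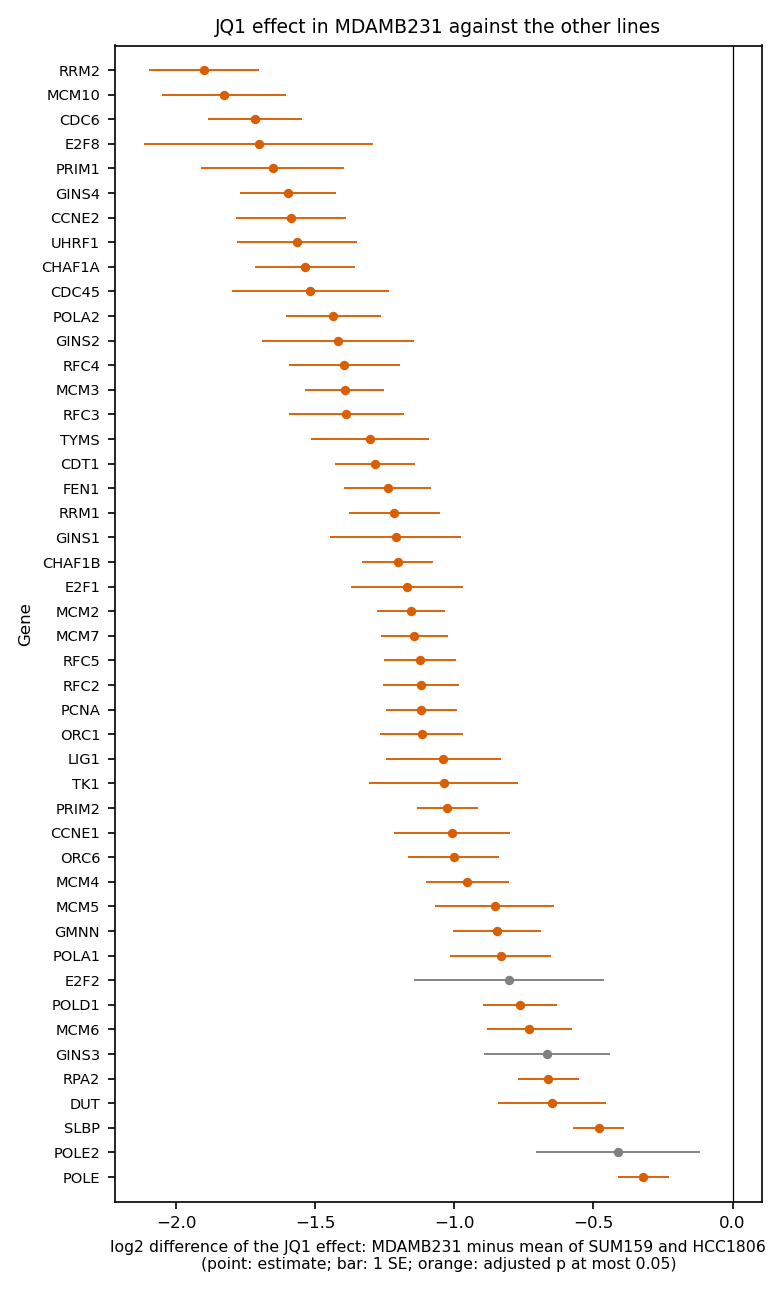
Difference of the JQ1 effect between MDAMB231 and the mean of SUM159 and HCC1806 for each of the 46 genes (log2, point) with 1 SE of the fit (bar), ordered by size. All 46 points lie below 0, from −1.90 for RRM2 to −0.32 for POLE, and the 3 grey ones, E2F2, GINS3 and POLE2, did not pass an adjusted p of 0.05.

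Adding GSK2801 to JQ1 gave lower values of the members in MDAMB231 and no call over the lines. Against JQ1 alone 0 members passed (limma), 3 had an unadjusted p under 0.05, and 0% of all tested genes passed, although 1031 of them had an unadjusted p under 0.05. The members' median log2 fold change was −0.24 (all genes 0.00), and 42 of 46 were below 0. In MDAMB231 all 46 members were lower with both compounds than with JQ1 alone, with a median of −0.61, where 45.3% of all tested genes were lower. The median in SUM159 was 0.02 and in HCC1806 −0.13. The lowest estimates over the lines were E2F2 (−0.80 ± 0.30), GINS2 (−0.72 ± 0.37), MCM5 (−0.66 ± 0.21) and E2F8 (−0.66 ± 0.51), with adjusted p of 0.625, 0.735, 0.562 and 0.863.

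A departure from additive effects was called for 0 of the 46 members over the lines (limma, 0 at an unadjusted p under 0.05, 0% of all tested genes). By line, the median departure was −0.57 in MDAMB231, with 45 of the 46 members below 0 where 44.9% of all tested genes were. It was 0.16 in SUM159 and −0.01 in HCC1806. With 1 library for each value, the departure within 1 line has no test.

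The members' starting levels differed between the 3 lines. With DMSO, 24 members were highest in HCC1806, 19 in MDAMB231 and 3 in SUM159, and the median ratio of the highest to the lowest line was 1.85-fold. For 18 members this range exceeded 2-fold, CCNE1 having the widest at 8.19-fold, followed by E2F8 at 4.61-fold. The DMSO levels of 1 library per line have no error of their own.

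The 58 other genes of replication and the E2F pathway were described as a list. With JQ1 5 of the 58 rose and 9 fell over the lines, and with both compounds 4 rose and 17 fell (24.1% and 36.2% called, against 22.6% and 34.8% of all tested genes). With both compounds the genes with the smallest p were RBBP4, a histone chaperone subunit, at −0.62 ± 0.09, the repressor E2F4 at −0.73 ± 0.11, the origin subunit ORC2 at −0.85 ± 0.14 and the thymidylate kinase DTYMK at −1.15 ± 0.19, which fell. RRM2B, the alternative reductase subunit, rose by 1.17 ± 0.19, and SAMHD1, which degrades deoxynucleotides, rose by 1.70 ± 0.28. The adjusted p of these 6 was between 0.00103 and 0.00231. In the comparison of MDAMB231 with the other lines, 40 of the 58 were lower and 2 higher. Of all tested genes 13.8% were lower and 17.4% higher. DNA2 (−1.99 ± 0.21) and the RB relative RBL1 (−1.55 ± 0.17) had the smallest p.

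The 20 genes of G2 and mitosis moved with the members in MDAMB231. Their median ratio there was −1.01 with JQ1 and −2.19 with both compounds, against 0.11 in HCC1806 and −0.45 in SUM159 with both. In MDAMB231, 20 of 20 were at least 2-fold lower with both, as were 14.3% of all tested genes. Their summed share of the signal in MDAMB231 was 0.542% with DMSO, 0.278% with JQ1 and 0.106% with both. In the limma test of MDAMB231 against the other lines 19 of the 20 were lower and 0 higher, where 13.8% of all tested genes were lower. CDC20 was 1 of the 19 (−1.74 ± 0.21, adjusted p = 0.00231). Over the lines, 0 of the 20 passed with JQ1 (2 at an unadjusted p under 0.05), where 22.6% of all tested genes did. With both compounds 3 fell (15%, against 34.8% of all genes), CCNA2 (−1.28 ± 0.31), AURKA (−1.49 ± 0.40) and TPX2 (−0.98 ± 0.33). Both shares lay below the background. The part of the cell cycle distribution in the members' values was not tested.

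Of the cyclin-dependent kinase inhibitors, 5 of 7 were tested. CDKN1A, which encodes p21, was at 2816, 5903, 2651 and 6053 in SUM159, at 1552, 6546, 1789 and 8086 in MDAMB231 and at 1003, 2649, 927 and 2900.1 in HCC1806. It was higher with JQ1 in every line, most in MDAMB231, and within each line both libraries with JQ1 lay above both without it. CDKN1A rose 2.86-fold with JQ1 (1.51 ± 0.21, adjusted p = 0.00259), and its JQ1 effect was larger in MDAMB231 than in the other lines (0.80 ± 0.11, adjusted p = 0.00278, a comparison chosen after the values had been seen). CDKN2D also rose with JQ1 (0.90 ± 0.21, adjusted p = 0.0173), and CDKN1B, CDKN1C and CDKN2C did not pass.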

How the data were processed

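The 12 libraries are polyadenylated RNA of 3 cell lines with 4 treatments. Per the submitters' processing notes, STAR 2.4, Salmon 0.60 and hg38 were used; the annotation and the scaling are not given in the sources used here. The authors deposited 1 normalized value per gene and library, a signal never below 0: estimated reads scaled so that the upper quartile of the values above 0 is 1663.93 in each library. From the steps between low values, 24200000 to 46800000 estimated reads per library were derived; 67.2% to 69.3% of values were whole reads within 0.02, so no count model was used. The labels name the library kit as KAPA Stranded mRNAseq in one field and Illumina TruSeq RNA v2 in another, so strandedness is unsettled. Of 28539 entries, 27 carry a date in place of a gene symbol and were left out.

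Samples were grouped by the treatment and cell line in the labels. Values were taken as log2(value + 1) for the 14232 genes with a mean of at least 10 and fitted with limma 3.58.1 in R 4.3.3 with a variance trend, with treatment and line as a block (6 residual degrees of freedom, 3.02 prior). A further fit with JQ1 and GSK2801 effects for each line (3 residual, 4.48 prior) gave the differences between lines. P-values were adjusted by Benjamini-Hochberg over all 14232 genes, with a threshold of 0.05. Lines pair the libraries: libraries of 1 line correlated at 0.935 to 0.993, those of different lines at 0.685 to 0.810. The code was tested on simulated data. The labels do not say that libraries came from separate cultures.

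Values in every library are given for the members that passed in any planned comparison (at most 20, by size of change) and for a fixed set of others, 28 in all; others are given by range and count, and other lists by count with at most 6 genes of smallest p. The members and lists were chosen with earlier results of these data known. Alternatives were other pseudocounts (0.5 and 10), filters, scalings, no variance trend, no line block, only the 6 libraries compared, and leaving out a line or, added after the values were seen, a single library. Gene positions and exon overlaps are from GENCODE v29, and promoters from RefSeq (GRCh38.p14).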

Additional observations from a re-analysis of the deposited data

Results flagged for a closer look

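The JQ1 effect of a line was tested against the mean of the other lines. For HCC1806 it differed in 20 members, all higher: RRM1 by 1.00, CCNE2 by 0.96, POLA1 by 0.95, MCM3 and RRM2 by 0.88, UHRF1 and GINS4 by 0.85, PRIM1 by 0.84, RFC4 by 0.66, MCM2 by 0.60, and GMNN and PCNA by 0.55 (log2) among the members given in full. The 20 are 43.5% of the members, where 25.1% of all tested genes passed and 14.5% were higher. Without MDAMB231, 2 of the 20 still passed and 6 turned below 0. Of the 20 calls, 0 were kept in every run with 1 library left out.

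For MDAMB231, a comparison added after the values were seen, it differed in 43 members, all lower. Over all tested genes 31.3% passed and 13.8% were lower. Of the 43 calls, 16 were lost without some single library. Among those given here, MCM5, GMNN, CDC45, GINS1, GINS2, POLA1, TYMS, DUT, E2F8, CCNE1 and SLBP were lost without at least 1 single library. The E2F1 call was lost without SUM159 and that of RRM1 without HCC1806. Among licensing genes the difference was −1.72 for CDC6, −1.39 for MCM3, −1.28 for CDT1, −1.16 for MCM2, −0.86 for MCM5 and −0.85 for GMNN. Among helicase genes it was −1.60 for GINS4, −1.52 for CDC45, −1.42 for GINS2 and −1.21 for GINS1. The polymerase and clamp genes stood at −1.65 for PRIM1, −0.83 for POLA1, −1.40 for RFC4, −1.39 for RFC3 and −1.12 for PCNA. Nucleotide supply genes stood at −1.90 for RRM2, −1.30 for TYMS, −1.22 for RRM1 and −0.65 for DUT. The E2F factors and E cyclins stood at −1.70 for E2F8, −1.59 for CCNE2, −1.17 for E2F1 and −1.01 for CCNE1, and the chromatin genes at −1.57 for UHRF1 and −0.48 for SLBP. Line, JQ1 dose and, for HCC1806, medium cannot be told apart here.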

How the results depend on the processing

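The count of members that passed moved as follows. With only the 6 libraries compared, the combination gave 3 against DMSO and 0 against GSK2801, where 7.11% and 2.11% of all genes passed. The lines pair the libraries. Without the replicate block, that is without the line as a term, 0% of all genes passed for JQ1. For the combination 0.288% passed against DMSO and 0.0211% against GSK2801. The members' counts were then 0 for JQ1, 0 for the combination against DMSO and 0 against GSK2801. With a JQ1 effect for each line they were 29, 33 and 31 (63.0%, 71.7% and 67.4% of the members, against 52.6%, 61.5% and 57.7% of all genes), and 6 for the combination against JQ1 (13.0%, against 6.12%); the JQ1 share then lay above the background and not below it. Quantile normalization gave 7 against GSK2801 (15.2%, against 27.6% of all genes). For HCC1806 against the other lines, 12 members passed with no filter, where 1739 of all genes passed as higher and 1331 as lower. With no variance trend 3 passed (6.52%, against 15.1% of all genes). Leaving out 1 line or library gave 0 to 11 members for JQ1 (2.82% to 26.2% of all genes) and 6 to 17 for the combination against DMSO (18.7% to 33.6%). It gave 2 to 12 against GSK2801 (11.6% to 27.8%), 0 to 33 for HCC1806 (2.61% to 24.3%) and 29 to 44 for MDAMB231 (10.1% to 24.3%). The difference of HCC1806 turned below 0 without MDAMB231; leaving out 1 line or library, it ran from −0.0176 to 1.43 for POLA2, −0.0159 to 1.11 for PCNA, −0.0515 to 1.37 for RFC4, −0.11 to 1.18 for FEN1, −0.0934 to 1.85 for RRM2 and −0.0679 to 1.502 for CHAF1A. The cause of these shifts was not tested. Fewer libraries entered where a line or library was left out or only 6 were compared, and all 12 entered in the other alternatives. The 0 counts at an adjusted p of 0.05 for GSK2801, for its difference between lines and for additivity held in every alternative run. Those at an unadjusted p under 0.05 (limma) did not. Without the MDAMB231 DMSO library, 67.4% of the members passed for the GSK2801 effect in MDAMB231 (9.15% of all genes). For that in HCC1806, 30.4% did (7.93% of all). With only the 6 libraries compared, 30.4% passed for GSK2801 against DMSO (13.2% of all). With 1 library per line and treatment, no error of a single line's value can be given.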
